A study of Mus musculus with 6 samples.

Results

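The ATP-dependent chromatin remodellers and the genes of bromodomain and AT-rich interaction domain (ARID) proteins were examined in cultured mouse dendritic cells given lysine. Members were chosen by symbol, as every row of the expression table that begins with Smarc, or with Chd, Brd, Arid or Baz and a digit, and whose description lacks the word pseudogene. The rule found 47 of 55740 rows. No measured value enters the symbols, but these families were proposed with the results of lysine against PBS known, so the counts over members are given as a description from which nothing is read. The cells were bone marrow-derived dendritic cells, antigen-presenting cells grown from marrow in culture, of C57BL/6J mice. They received phosphate-buffered saline (PBS, 3 samples) or 18 mM lysine (3 samples), both for 6 h. The labels give no genotype, agent or culture step that differs between the groups other than lysine, and no age, sex or pooling of the mice. Nothing in them tells whether samples of a group are independent cultures, and the p-values therefore reflect sample-to-sample spread that may be only technical.

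Remodellers use ATP to slide, eject or exchange nucleosomes. The SMARC genes encode the BAF (SWI/SNF) complexes and the ISWI ATPases, the CHD genes encode chromodomain helicases, the BAZ genes encode partners of ISWI, and ARID proteins bind DNA or, in BAF, help to place the complex. A bromodomain is a fold that binds acetylated lysine on histones, and BET proteins such as BRD2 and BRD3 use it to bring the elongation machinery to acetylated promoters and enhancers. In dendritic cells and macrophages, BAF and BET proteins are known for the opening and transcription of inflammatory genes.

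Values are in TPM, the share of a transcript among all transcripts after scaling by length, so levels can be compared between genes. TPM keeps no sequencing depth, which is unknown. Of the 47 members 43 reached 1 TPM in at least 3 samples and were tested. A gene was called at an adjusted p under 0.05 in limma, a linear model fitted over all 12539 genes tested. Every log2 fold change compares lysine with PBS after adding 1 to the TPM, which understates the change of low genes, and is given with its standard error (SE), and group values are means ± SD with n = 3.

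The correlation of samples over the tested genes was 0.974 to 0.982 within a group and 0.914 to 0.934 between groups. Of the 8 dendritic cell markers 5 were tested and 0 were called. Itgax, which encodes CD11c, stood at 347 to 385 TPM in all 6 samples, Siglech of plasmacytoid cells was listed at 0 throughout, and Xcr1 and Cd209a stayed under 1 TPM. Flt3 was low, at 0.95 to 2.66 TPM, and Zbtb46 held 32.85 TPM in PBS replicate 2 and 6.99 to 9.88 TPM in the other samples. Replicate 3 of each group stood apart from its group in H2-Ab1, an MHC class II gene (741 and 677 TPM, against 319 to 360 TPM in the other 4 samples). Of 6 macrophage markers 4 were called lower with lysine, and their summed level was 690.3 to 698 TPM with PBS and 543 to 602 TPM with lysine. The monocyte receptor gene Ccr2, the mast cell marker Cpa3, the neutrophil gene S100a8 and the cell cycle gene Cdk1 were called lower and the proliferation gene Mki67 higher. The other tested markers of these lists were not called. Among them were Cd14 (320.9 TPM with PBS, 376.1 with lysine), Ly6c2 (12.7 and 7.65 TPM) and S100a9 (1.45 and 1.25 TPM). Ccr2 was uneven with PBS (2.57, 3.22 and 14.25 TPM), and the summed monocyte markers overlapped (323 to 365 TPM with PBS, 353 to 419 TPM with lysine). Fewer cells of a type and less RNA per cell cannot be told apart in such bulk samples, and the part of these markers in the results on chromatin genes was not tested.

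With lysine 22 of the 43 tested members were called higher, 4 lower and 17 were not called. Over all tested genes 55.1% were called, 25.8% higher and 29.3% lower. The median log2 fold change was 0.38 over the tested members and -0.05 over all tested genes. All 3 lysine samples lay above all 3 PBS samples for 23 tested members and below them for 7. Over all tested genes 63.4% had groups that did not overlap, 29.7% with lysine above and 33.7% with lysine below. Called rises of at least 1 on the log2 scale were found for Chd2, Brd8dc, Chd7, Baz1a, Brd2 and Chd1 (6 members) and falls of that size for 0 members. Brd8dc among them passed the filter through the lysine samples only. With a pseudocount of 0.1 in place of 1, Chd5 (1.17) and Smarcd3 (-1.77), both low, passed this limit as well. The same limit was passed by 6.28% of all tested genes upward and by 6.75% downward.

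The counts by family are a description, to be set beside 25.8% called higher and 29.3% lower over all tested genes. Of the CHD genes 8 of 10 were called higher (80.0%), of the BAZ genes 3 of 4 (75.0%). Of the BRD genes it was 5 of 8 tested (62.5%) and of the ARID genes 5 of 9 tested (55.6%). Of the SMARC genes 1 of 12 tested was called higher (8.33%) and 2 were called lower (16.7%). These counts include Chd5 and Brd8dc, which passed the filter through the lysine samples only, and Smarcd3, which passed through the PBS samples only. The summed level of the BRD genes was 286 ± 9.78 TPM with PBS and 542 ± 30.1 TPM with lysine, and that of the CHD genes 225 ± 2.90 and 357 ± 9.91 TPM. The summed SMARC level was 316 ± 14.8 and 298 ± 25.5 TPM, with overlapping samples. These sums are led by a few genes, Brd2 above all.

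**Figure D1:**
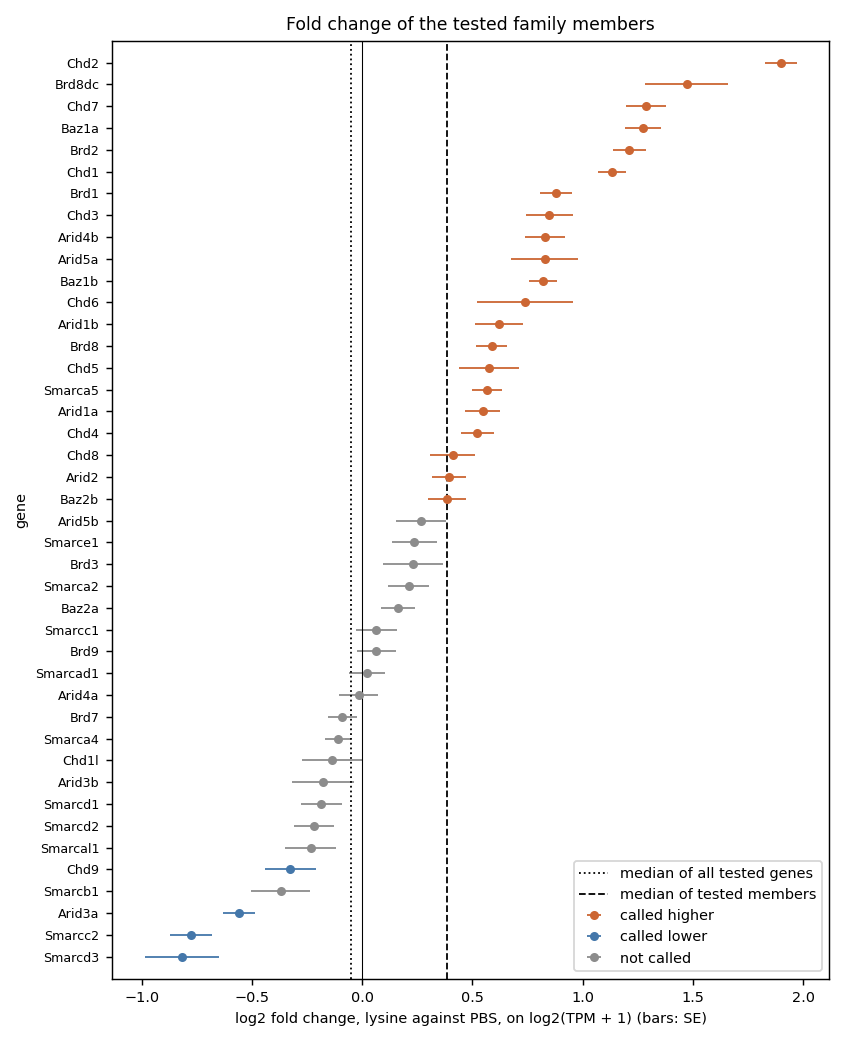
Log2 fold change (lysine against PBS, on log2(TPM + 1)) with its SE for the tested members described here, ordered by size and coloured by call. Chd2 stands highest at 1.90 and Smarcd3 lowest at -0.82, and the dashed median of the members (0.38) lies right of the dotted median of all tested genes (-0.05).

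Of the tested members 3 passed the filter through samples of 1 group only, so their difference is partly set by the filter. Chd5 and Brd8dc passed through the lysine samples and Smarcd3 through the PBS samples. Among the 40 members that passed through both groups, 20 were called higher, 3 lower and 17 were not called. The 4 untested members were low in every sample. Smarca1, an ISWI ATPase gene, reached 0.01 TPM in 1 PBS sample and was listed at 0 in the others. Arid3c reached 0.03 TPM in 1 lysine sample, and Brd3os, on the strand opposite to Brd3, stayed between 0.18 and 1.21 TPM. Smarce1-ps1 met the rule because its description spells pseudogene differently, and it was listed at 0 in all samples.

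In PBS samples the members covered a wide range of levels. Brd2 was the highest at 154 ± 7.99 TPM, a level above that of 93.5% of tested genes. Chd4 (68.9 ± 4.22 TPM), Chd9 (66.2 ± 5.81 TPM) and Smarce1 (61.5 ± 3.35 TPM) came next, and the samples of Chd9 overlapped those of both others. They were followed by Smarcb1 (49.7 ± 2.29 TPM), Smarcc2 (42.0 ± 2.97 TPM) and Smarcd2 (42.0 ± 2.34 TPM), of which the last 2 did not differ beyond their spread. The median tested member stood at the percentile 54.7 of all tested genes by PBS level. At the low end, Chd6 held 4.41 ± 0.702 TPM, Smarcd3 1.37 ± 0.332 TPM, Chd5 0.487 ± 0.0808 TPM and Brd8dc 0.140 ± 0.104 TPM.

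**Figure D2:**
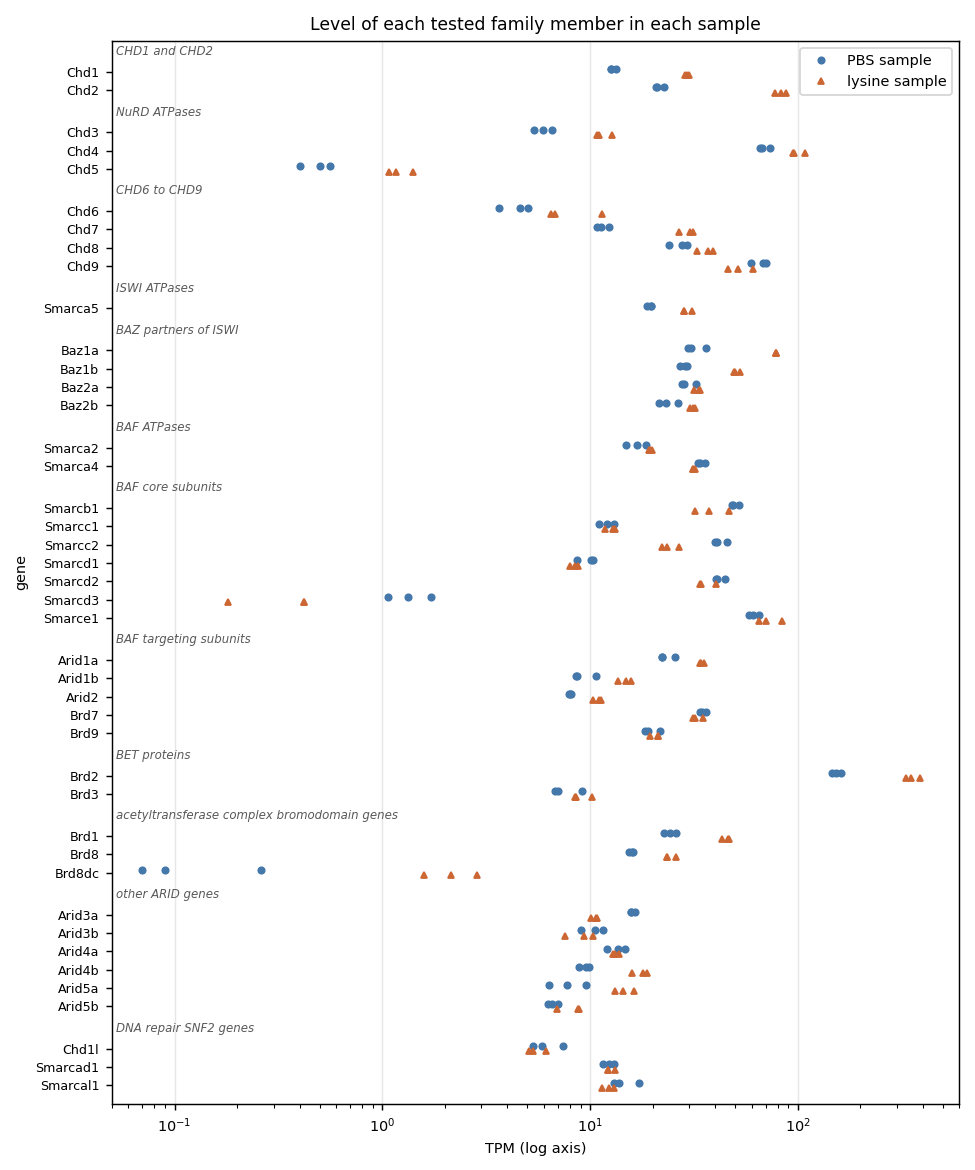
TPM of the tested members described here in each of the 6 samples (log axis), PBS samples as circles and lysine samples as triangles, grouped by role. The groups stand apart for genes such as Chd2 (20.7 to 22.7 against 77.5 to 87.8 TPM) and overlap for genes such as Smarcad1 and Brd9.

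CHD1 and CHD2 are monomeric remodellers that act in transcribed genes, and both of their genes rose. Chd2, on chromosome 7 from 73426638 to 73541830 in GRCm38 (ENSMUSG00000078671), held 20.7, 21.0 and 22.7 TPM in the PBS samples and 83.5, 77.5 and 87.8 TPM in the lysine samples. It had the largest change on the log2(TPM + 1) scale, while Brd8dc and Smarcd3, both near the filter, had larger ratios of TPM. Its TPM was 3.86-fold higher, and every lysine sample lay more than 50 TPM above every PBS sample (log2 fold change 1.90 ± 0.072, adjusted p = 2.02e-05). Chd1, on chromosome 17 from 15704967 to 15772610, held 13.3, 12.6 and 12.6 TPM with PBS and 29.5, 29.9 and 28.6 TPM with lysine. Its groups were tight and far apart, with lysine 2.28-fold higher (1.13 ± 0.064 on the log2 scale, adjusted p = 5.47e-05).

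Chd2 has a long non-coding RNA, Chaserr, on the same strand just upstream, which in the mouse is known to hold back Chd2 expression in cis. Chaserr was chosen after its values were seen. It held 25.6, 30.4 and 23.6 TPM with PBS and 67.7, 64.4 and 103 TPM with lysine. Both RNAs of the locus were thus higher in every lysine sample (Chaserr log2 fold change 1.5 ± 0.19, adjusted p = 0.000877). Their annotated spans share 2628 bases, so part of the reads could be assigned to either.

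CHD3, CHD4 and CHD5 are alternative ATPases of the NuRD complex, which joins remodelling to histone deacetylation. Chd3 and Chd4 rose, and the rise of Chd5 was partly set by the filter. Chd4, the main one here (chromosome 6, 125095981 to 125130591), held 65.7, 67.4 and 73.7 TPM with PBS and 95.6, 95.1 and 108 TPM with lysine (log2 fold change 0.52 ± 0.075, adjusted p = 0.00144). Chd3 held 5.38, 5.91 and 6.55 TPM with PBS and 10.85, 10.99 and 12.7 TPM with lysine. Its groups were apart by more than their spread (log2 fold change 0.85 ± 0.11, adjusted p = 0.000799). Chd5, best known from neurons and testis, stayed at 0.40, 0.56 and 0.50 TPM with PBS and 1.40, 1.17 and 1.08 TPM with lysine (adjusted p = 0.0114), levels near the filter. It passed the filter through the lysine samples only, so nothing is read from its call. The share of Chd4 in the sum of Chd3 and Chd4 was 92.1% ± 0.317 with PBS and 89.6% ± 0.173 with lysine, without overlap.

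CHD6 to CHD9 form the third CHD subfamily, and its members did not move alike. Chd7, whose human counterpart is mutated in CHARGE syndrome, lies on chromosome 4 (8690406 to 8867659). It held 10.8, 11.3 and 12.3 TPM with PBS and 26.8, 30.3 and 31.2 TPM with lysine, which is 2.57-fold higher (log2 fold change 1.29 ± 0.089, adjusted p = 9.45e-05). Chd8, whose human counterpart is linked to autism, held 29.2, 24.0 and 27.9 TPM with PBS and 32.6, 37.0 and 39.2 TPM with lysine, a smaller rise of 0.41 ± 0.10 on the log2 scale (adjusted p = 0.0137). Chd6 held 3.64, 4.59 and 5.01 TPM with PBS and 11.4, 6.75 and 6.51 TPM with lysine. Lysine replicate 1 was well above the other 2, and the call (log2 fold change 0.74 ± 0.22, adjusted p = 0.0267) was lost without PBS replicate 1 (adjusted p = 0.083) or 2 (adjusted p = 0.0602) and with no filter on low values (adjusted p = 0.0722). Chd9 held 68.3, 70.6 and 59.6 TPM with PBS and 60.7, 51.5 and 46.2 TPM with lysine, and 1 lysine sample lay within the PBS range. It was called lower (log2 fold change -0.33 ± 0.12, adjusted p = 0.0496), but 9 of 14 other settings lost the call, among them the fits that left out 1 sample (PBS replicates 1 and 2, lysine replicates 2 and 3) (adjusted p up to 0.142 over all settings).

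ISWI remodellers space nucleosomes, and each pairs an ATPase with a large partner such as a BAZ protein. Smarca5, which encodes the ATPase SNF2H, held 19.8, 19.6 and 18.8 TPM with PBS and 28.2, 28.2 and 31.0 TPM with lysine. It rose without overlap (log2 fold change 0.56 ± 0.069, adjusted p = 0.00072) and was the only SMARC gene called higher in the main fit. Its paralog Smarca1 was near 0, so Smarca5 made up 99.95% to 100% of the pair in every sample.

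Baz1a encodes ACF1, the partner of SNF2H in nucleosome spacing, and lies on chromosome 12 (54892989 to 55014348). It held 30.6, 29.7 and 36.0 TPM with PBS and 78.5, 78.7 and 78.9 TPM with lysine. The lysine samples agreed within 0.180 TPM (SD) and were 2.45-fold above PBS (log2 fold change 1.27 ± 0.082, adjusted p = 7.66e-05). Baz1b, which encodes WSTF, held 27.1, 28.6 and 29.4 TPM with PBS and 52.8, 49.6 and 50.1 TPM with lysine (log2 fold change 0.82 ± 0.062, adjusted p = 0.000125). Baz2b held 23.2, 26.4 and 21.6 TPM with PBS and 31.9, 31.5 and 30.2 TPM with lysine, a smaller rise (log2 fold change 0.38 ± 0.087, adjusted p = 0.00934). Baz2a, which encodes TIP5, a silencer of ribosomal RNA genes, was not called, at 29.4 ± 2.43 and 33.0 ± 1.23 TPM (log2 fold change 0.16 ± 0.078, adjusted p = 0.118). With median-of-ratios scaling (adjusted p = 0.0304) and without PBS replicate 3 (adjusted p = 0.037) Baz2a was called higher.

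The BAF complexes contain 1 of 2 ATPases, BRM (Smarca2) or BRG1 (Smarca4), and neither gene was called in the main fit. Smarca4 held 34.0, 33.1 and 35.8 TPM with PBS and 32.1, 31.5 and 31.4 TPM with lysine (log2 fold change -0.11 ± 0.059, adjusted p = 0.154). Smarca2 held 18.6, 14.9 and 16.9 TPM with PBS and 19.97, 19.2 and 19.4 TPM with lysine (log2 fold change 0.21 ± 0.093, adjusted p = 0.0967). Without PBS replicate 1 Smarca2 was called higher (adjusted p = 0.0493). The groups did not overlap for either gene, with the lysine samples below PBS for Smarca4 and above PBS for Smarca2. The share of Smarca4 in the pair was 64.6%, 69.0% and 68.0% with PBS and 61.6%, 62.1% and 61.9% with lysine, so BRG1 mRNA remained the larger part in every sample.

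Among the 7 core BAF subunit genes 2 were called lower (28.6%), Smarcc2 and Smarcd3, and 0 higher. Over all tested genes 29.3% were called lower, a share near that of the core genes, and 25.8% higher. With the replicate number as a block Smarcb1 (adjusted p = 0.0236) and Smarcd2 (adjusted p = 0.0272) were called lower too, and Smarce1 was called higher (adjusted p = 0.0338). Smarcc2, which encodes the scaffold BAF170, lies on chromosome 10 (128459248 to 128490482). It held 40.9, 39.8 and 45.4 TPM with PBS and 23.4, 22.2 and 26.9 TPM with lysine, 1.74-fold lower (log2 fold change -0.78 ± 0.094, adjusted p = 0.000704). Its paralog Smarcc1, which encodes BAF155, stood at 11.01, 12.1 and 13.1 TPM with PBS and 11.8, 12.9 and 13.2 TPM with lysine, overlapping groups (adjusted p = 0.578). The share of Smarcc1 in the pair was therefore 21.2%, 23.3% and 22.3% with PBS and 33.6%, 36.8% and 32.9% with lysine. This was the largest difference among the paralog shares computed, 12.1 percentage points. Smarcc1 overlaps Dhx30 on the opposite strand (19.1 to 23.5 TPM with PBS, 15.6 to 24.2 TPM with lysine), and the sources used here do not say whether counting used strand.

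Smarcd1, Smarcd2 and Smarcd3 encode the alternative BAF60 subunits. Smarcd2, which human and mouse neutrophil development needs, was the main one at 40.6, 40.7 and 44.7 TPM with PBS and 34.1, 33.7 and 40.4 TPM with lysine, and was not called without the block (adjusted p = 0.0797) but was called without lysine replicate 3 (adjusted p = 0.0137). Smarcd1 held 8.69, 10.3 and 10.1 TPM with PBS and 8.72, 8.04 and 8.43 TPM with lysine (adjusted p = 0.139). Smarcd3, the form of heart and muscle, fell from 1.72, 1.33 and 1.06 TPM to 0.18, 0.42 and 0.42 TPM (log2 fold change -0.82 ± 0.17, adjusted p = 0.00631). It overlaps Chpf2 on the opposite strand, which held 69.7 to 76.4 TPM with PBS and 24.1 to 30.3 TPM with lysine, so the value of Smarcd3 is uncertain. Smarcb1, the common core subunit INI1, held 48.1, 48.6 and 52.3 TPM with PBS and 37.4, 31.9 and 46.5 TPM with lysine. All lysine samples were lower, and the call was narrowly missed (log2 fold change -0.37 ± 0.13, adjusted p = 0.0514). It was made in 5 of the 14 other settings, among them the fit without lysine replicate 3 (adjusted p = 0.00512). Smarce1, which encodes BAF57, was at 61.5 ± 3.35 and 73.0 ± 9.74 TPM, with 83.8 TPM in lysine replicate 3, and was not called without the block (adjusted p = 0.0905) but was called without lysine replicate 2 (adjusted p = 0.0471).

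Of the 5 subunit genes that distinguish the BAF forms, 3 were called higher and 2 were not called. Arid1a, found in canonical BAF, held 22.3, 22.2 and 25.8 TPM with PBS and 34.0, 34.2 and 35.5 TPM with lysine (log2 fold change 0.55 ± 0.078, adjusted p = 0.00138). Its paralog Arid1b held 8.53, 8.68 and 10.7 TPM with PBS and 15.8, 13.7 and 14.8 TPM with lysine (log2 fold change 0.62 ± 0.11, adjusted p = 0.0034). Arid2, found in the PBAF form, held 8.09, 8 and 7.96 TPM with PBS and 11.25, 11.03 and 10.3 TPM with lysine (log2 fold change 0.39 ± 0.077, adjusted p = 0.00518). All 3 rose, by 1.36- to 1.59-fold, and the share of Arid1a in their sum was 57.5% ± 0.481 with PBS and 57.4% ± 1.54 with lysine. Brd7 of PBAF stood at 34.0, 34.5 and 36.3 TPM with PBS and 34.9, 31.4 and 32.1 TPM with lysine, and Brd9 of the non-canonical form at 21.8, 18.3 and 19.1 TPM and at 21.2, 19.4 and 21.4 TPM. Neither was called (adjusted p = 0.299 and 0.569), and the groups of both overlapped. Over all 14 BAF members 3 were called higher (21.4%), 2 lower (14.3%) and 9 were not called, with a median log2 fold change of -0.013. The called higher share was near that of all tested genes (25.8%), of which 29.3% were called lower.

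**Figure D3:**
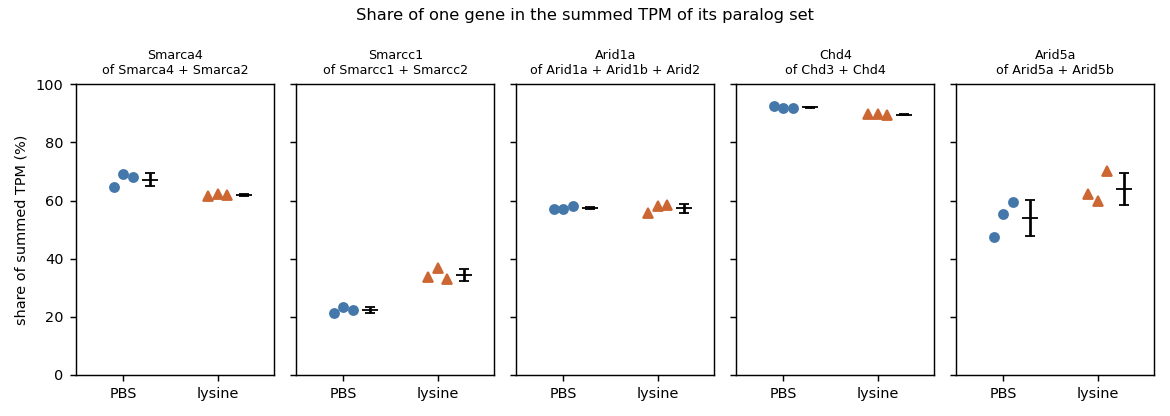
Share (%) of 1 gene in the summed TPM of its paralog set in each sample, with the mean ± SD of the 3 samples of a group as a bar beside the points. Smarcc1 takes 21.2% to 23.3% of its pair with PBS and 32.9% to 36.8% with lysine, while the share of Arid1a overlaps between the groups.

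Of the BET genes described here, Brd2 rose and Brd3 was not called. Brd2, on chromosome 17 from 34112023 to 34122634 (ENSMUSG00000024335), held 154, 146 and 162 TPM in the PBS samples and 352, 333 and 389.7 TPM in the lysine samples. The 2.33-fold change was far beyond the spread (log2 fold change 1.21 ± 0.075, adjusted p = 6.67e-05), and no tested member had a higher level in either group. Brd3 held 6.77, 6.98 and 9.13 TPM with PBS and 10.2, 8.45 and 8.60 TPM with lysine. Its groups overlapped (log2 fold change 0.23 ± 0.14, adjusted p = 0.189), though Brd3 was called higher without PBS replicate 3 (adjusted p = 0.0471).

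Brd2 lies in the MHC class II region and overlaps the antigen-loading gene H2-DMa on the opposite strand. H2-DMa held 80.2, 86.9 and 134 TPM with PBS and 65.7, 71.0 and 111 TPM with lysine, so it was high in replicate 3 of both groups. Brd2 was highest in those samples too, as were other members such as Chd4, Smarcc2, Smarcd2 and Smarce1. The part of H2-DMa in the values of Brd2 was not tested.

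Brd1 and Brd8 belong to acetyltransferase complexes, and both rose. Brd1, a scaffold of complexes with HBO1 or MOZ, held 24.2, 22.7 and 26.0 TPM with PBS and 46.4, 46.9 and 43.3 TPM with lysine (log2 fold change 0.88 ± 0.074, adjusted p = 0.000176). Brd8, of the TIP60 and EP400 complex, held 15.9, 15.4 and 16.1 TPM with PBS and 23.4, 23.5 and 26.0 TPM with lysine (log2 fold change 0.59 ± 0.072, adjusted p = 0.000741). Brd8dc lies 1146 bases from Brd8 on the same strand. It was nearly silent with PBS, at 0.07, 0.26 and 0.09 TPM, and reached 2.87, 1.58 and 2.14 TPM with lysine (log2 fold change 1.47 ± 0.19, adjusted p = 0.000882). With a pseudocount of 0.1 in place of 1 its log2 fold change was 3.30, since the scale understates changes of low genes. Brd8dc passed the filter through the lysine samples only, so its rise was partly set by the filter and nothing is read from its call.

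The remaining ARID genes went both ways. Arid3a, which encodes the B cell regulator Bright, held 15.8, 16.5 and 15.8 TPM with PBS and 10.1, 10.8 and 10.7 TPM with lysine. It was lower in every lysine sample (log2 fold change -0.56 ± 0.072, adjusted p = 0.000895), while Arid3b was not called (10.4 ± 1.30 and 9.10 ± 1.40 TPM, adjusted p = 0.314). Arid4b, a partner of the SIN3 corepressor, held 9.86, 9.58 and 8.89 TPM with PBS and 18.9, 17.9 and 15.9 TPM with lysine (log2 fold change 0.83 ± 0.091, adjusted p = 0.000487). Its paralog Arid4a stood at 13.5 ± 1.29 and 13.3 ± 0.478 TPM (adjusted p = 0.889). Arid4b overlaps Ggps1 on the opposite strand, which was also higher (10.6 to 11.6 TPM with PBS, 15.6 to 17.7 TPM with lysine).

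Arid5a encodes a protein that in the mouse binds and stabilises Il6 mRNA. It held 6.33, 7.73 and 9.57 TPM with PBS and 14.4, 13.2 and 16.3 TPM with lysine, 1.86-fold higher without overlap (log2 fold change 0.83 ± 0.15, adjusted p = 0.00403). Arid5b, which works with the demethylase PHF2, held 7.04, 6.26 and 6.56 TPM with PBS and 8.74, 8.88 and 6.97 TPM with lysine, and was not called (adjusted p = 0.0897). With quantile normalization (adjusted p = 0.0346) and without lysine replicate 3 (adjusted p = 0.0219) Arid5b was called higher. The share of Arid5a in the pair was 47.3%, 55.3% and 59.3% with PBS and 62.2%, 59.7% and 70.1% with lysine, just apart. Of the mRNAs known to be bound by Arid5a, Il6 rose from 17.2 ± 1.76 to 61.3 ± 11.4 TPM and Stat3 from 57.1 ± 5.42 to 78.9 ± 9.38 TPM (adjusted p = 0.000187 and 0.0104). Zc3h12a, which encodes Regnase-1, the RNase that Arid5a opposes, was named after its value was seen and rose as well, from 29.2 ± 1.77 to 34.8 ± 2.49 TPM (adjusted p = 0.0381). Of the other listed targets Tnfrsf4 was not called (adjusted p = 0.192) and Tbx21 stayed under 1 TPM.

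The 3 SNF2-related genes best known from DNA repair were not called. Chd1l, which encodes a remodeller activated by poly(ADP-ribose), stood at 6.20 ± 1.06 and 5.52 ± 0.563 TPM (adjusted p = 0.424). Smarcad1, which acts in the resection of DNA ends, stood at 12.3 ± 0.791 and 12.5 ± 0.567 TPM (adjusted p = 0.847). Smarcal1, which rewinds DNA at stalled forks, stood at 14.7 ± 2.23 and 12.3 ± 0.799 TPM (adjusted p = 0.134).

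Promoters were searched for letters bound by factors of the cAMP and stress response. RefSeq windows of 300 bases (GRCm38.p6, 250 before and 50 after a transcript start) were at hand for 34 members, 43 windows in all. The C/EBP-ATF response element, which ATF4 binds, was searched as TGATGNAA on both strands. It was found for 2 of the 34 members, Arid5a and Arid5b, and in 3.97% of 32851 windows of all genes. The cAMP response element TGACGTCA was found for 1 member, Baz2b, and in 1.79% of all windows. The AP-1 element TGANTCA was found for 2 members, Smarca2 and Smarcb1 (7.81% of all windows), and the E-box CACGTG for 0 members (7.15% of all windows). No member held more than 1 of these motifs. Arid5a and Arid5b differ in their call in the main fit, though Arid5b was called higher in 2 other settings. The windows of the first 3 genes are shown partly for this reason, and because they carry the stress-type elements, in capitals. They lie at chr1:36307483-36307782 (plus strand), chr10:68278677-68278976 (minus strand) and chr2:60125691-60125990 (minus strand), each written 5′ to 3′ along its gene.
Arid5a: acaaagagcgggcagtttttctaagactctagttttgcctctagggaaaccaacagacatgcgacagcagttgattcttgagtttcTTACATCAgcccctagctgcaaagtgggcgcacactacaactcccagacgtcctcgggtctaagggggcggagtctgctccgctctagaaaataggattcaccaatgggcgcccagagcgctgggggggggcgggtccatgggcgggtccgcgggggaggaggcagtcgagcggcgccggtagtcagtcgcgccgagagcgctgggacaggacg
Arid5b: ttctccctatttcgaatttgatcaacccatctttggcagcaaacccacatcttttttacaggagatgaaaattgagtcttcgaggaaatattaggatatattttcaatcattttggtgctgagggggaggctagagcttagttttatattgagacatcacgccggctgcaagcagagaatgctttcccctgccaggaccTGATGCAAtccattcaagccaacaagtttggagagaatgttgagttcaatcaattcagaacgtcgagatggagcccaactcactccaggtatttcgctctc
Baz2b: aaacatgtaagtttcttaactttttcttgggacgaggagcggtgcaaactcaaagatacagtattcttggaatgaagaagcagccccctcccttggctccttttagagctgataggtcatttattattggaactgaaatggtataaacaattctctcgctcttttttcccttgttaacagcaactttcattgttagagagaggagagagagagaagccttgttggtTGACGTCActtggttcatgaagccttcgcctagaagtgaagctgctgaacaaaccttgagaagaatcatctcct
In Arid5a the match lies on the opposite strand and its first printed base is 164 bases before the start. In Arid5b it begins 51 bases before the start and in Baz2b 24 bases before. The Baz2b window lies inside the annotated span of the gene (59899363 to 60209839, minus strand). Its start is therefore an internal transcript start, whereas the windows of Arid5a and Arid5b cover the 5′ ends of their spans. A match of these letters is a description of the window and does not show that a factor is bound there.

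Members of these families have long coding sequences, a property the symbols did not use. Their median longest annotated coding length was 3639 bases over the 43 tested members, against 1341 bases over 10967 tested protein-coding genes. Of the tested members 24 fell in the decile of these genes with the longest coding sequences (3321 bases or more). In that decile of all genes 35.1% were called higher and 21.1% lower, against 20.5% and 26.9% in the decile with the shortest. Between them the shares did not follow length evenly, with 19.7% to 28.3% called higher and 28.5% to 37.0% called lower in the other deciles. Of the 24 members in the longest decile 17 were called higher and 2 lower, and of the 19 shorter members 5 were called higher and 2 lower. Spearman's rho of coding length with the log2 fold change was 0.39 across the 43 members and 0.08 across all tested protein-coding genes, given without a test because genes share libraries and are not replicates. The decile with the longest coding sequences was thus the one with more genes called higher than lower, and the part of length in the result was not tested. The SMARC genes of the longest decile, Smarca2, Smarca4 and Smarcc2, included 0 called higher, while 17 of the 21 members of the other families in it were. Outside this decile 1 of 9 SMARC genes and 4 of 10 members of the other families were called higher. The part of family was not tested either.

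**Figure D4:**
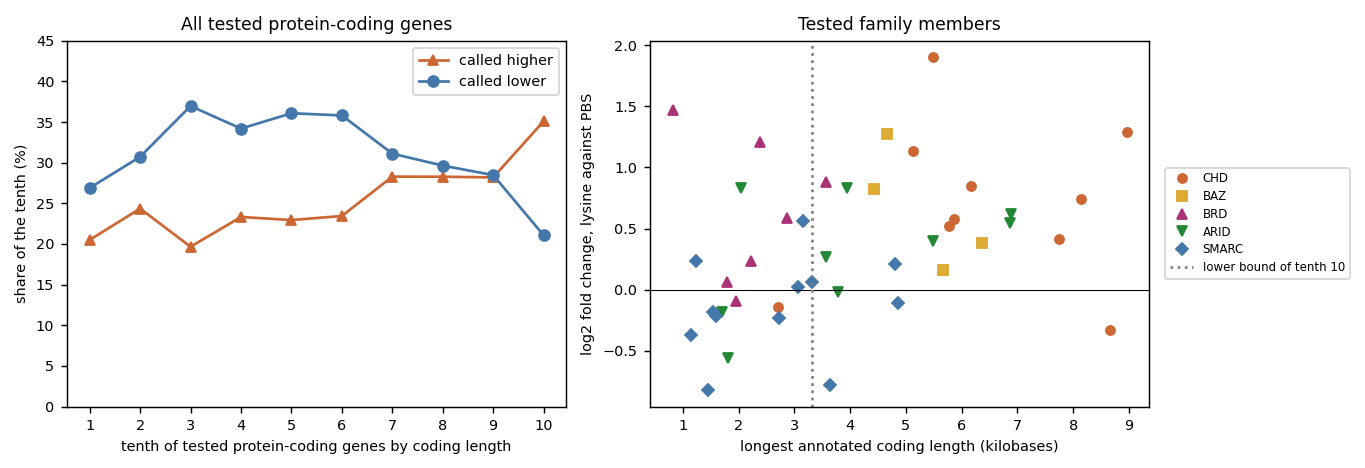
Left, share (%) of tested protein-coding genes called higher or lower in each decile by coding length, where the called higher share reaches 35.1% in the longest decile. Right, log2 fold change of the tested members described here against its longest annotated coding length in kilobases, coloured by family, with SMARC genes mostly near or under 0.

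Genes outside the symbol rule were taken from lists by complex or partner and by protein domain or ATPase type. A further list held the mRNAs bound by Arid5a with its antagonist, described above. Of the 133 listed genes 125 were tested, and 61 were called higher (48.8%), 18 lower (14.4%) and 46 were not called, with a median log2 fold change of 0.23. Over all tested genes 25.8% were called higher and 29.3% lower. Of 13 tested BAF and PBAF subunits 6 were higher (46%) and 2 lower (15%). Ss18, of the non-canonical and canonical forms, rose from 47.8 ± 2.66 to 97.4 ± 1.52 TPM by 1.01 ± 0.06 on the log2 scale, and the little expressed Dpf1 from 0.66 ± 0.426 to 4.15 ± 0.255 TPM. Actb, which encodes the actin that BAF also contains and that serves mainly in the cytoskeleton, fell from 5856 ± 692 to 2399 ± 278 TPM.

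Among 7 tested ISWI partners 4 were higher (57.1%) and 2 lower (28.6%). Bptf, the large subunit of NURF and itself a bromodomain gene, went up from 16.9 ± 1.58 to 33.3 ± 0.904 TPM, by 0.94 ± 0.083 on the log2 scale, and Rsf1 from 7.81 ± 0.352 to 13.6 ± 1.03 TPM. Of 12 NuRD subunits 4 were higher (33.3%) and 3 lower (25.0%), shares near those of all tested genes (25.8% and 29.3%). Gatad2b rose from 10.6 ± 1.13 to 17.8 ± 1.17 TPM (adjusted p = 0.00137), while the deacetylase gene Hdac1 fell from 71.2 ± 1.84 to 50.3 ± 2.93 TPM (adjusted p = 0.000877).

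In the INO80, SRCAP and TIP60 complexes 13 of 28 genes were higher (46.4%) and 6 lower (21.4%). Epc1, which links the TIP60 acetyltransferase to nucleosomes, was raised from 14.7 ± 0.995 to 47.2 ± 3.27 TPM, by 1.62 ± 0.082 on the log2 scale (adjusted p = 3.86e-05), and its paralog Epc2 from 8.91 ± 0.826 to 20.2 ± 1.57 TPM. Ing3 rose from 8.29 ± 2.52 to 18.6 ± 1.54 TPM and the transcription factor gene Yy1 from 18.1 ± 0.925 to 34.3 ± 0.709 TPM. The shared helicase genes Ruvbl1 and Ruvbl2, chosen after their values were seen, were among those called lower. Of 9 other SNF2-related ATPase genes 2 were higher and 2 lower (22.2% each), shares near or under those of all tested genes (25.8% and 29.3%). Ercc6, the gene of Cockayne syndrome B, rose from 9.65 ± 0.596 to 18.7 ± 1.93 TPM and Btaf1 from 11.2 ± 0.299 to 18.5 ± 0.777 TPM.

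BET proteins act in part through the elongation kinase P-TEFb. Of 20 genes for BET partners, P-TEFb with its regulators, and the pausing factors it acts on, 10 were higher and 2 lower. Hexim1, its inhibitor, held 21.5, 21.1 and 17.4 TPM with PBS and 47.5, 45.3 and 39.0 TPM with lysine (log2 fold change 1.10 ± 0.11, adjusted p = 0.000358). Mllt3, which encodes the elongation complex protein AF9, held 3.78, 5.21 and 3.65 TPM with PBS and 21.7, 16.9 and 25.1 TPM with lysine, a 5.04-fold change (adjusted p = 0.000178). The groups of both genes were well apart. Aff1 rose from 27.7 ± 0.725 to 48.7 ± 1.73 TPM. Those that fell were the elongation factor gene Ell2, from 25.4 ± 0.807 to 12.0 ± 0.972 TPM, and Nelfe of the pausing factor NELF, from 35.98 ± 3.24 to 16.7 ± 4.20 TPM.

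Other bromodomain genes were higher in 13 (59.1%) and lower in 3 (13.6%) of 22 tested cases. For this and the next 2 lists, the shares of all tested genes were 25.8% higher and 29.3% lower. The methyltransferase genes Ash1l (7.74 ± 0.546 to 19.5 ± 1.79 TPM) and Kmt2a (8.56 ± 1.37 to 20.4 ± 1.90 TPM) and the ubiquitin ligase gene Trim33 (10.9 ± 0.565 to 24.4 ± 2.08 TPM) rose by more than 1 on the log2 scale. Of 5 other ARID domain genes 4 were higher (80.0%) and 0 lower. The 4 were Jarid2 of the Polycomb complex and 3 genes of histone H3 lysine 4 demethylases, of which Kdm5a is named after its value was seen. Kdm5c rose from 18.2 ± 3.28 to 38.0 ± 7.23 TPM, Kdm5b from 6.33 ± 0.276 to 11.2 ± 1.11 TPM and Jarid2 from 29.6 ± 2.79 to 52.6 ± 3.95 TPM. Among 12 partners of the other members 5 were higher (41.7%) and 1 lower (8.33%). The acetyltransferase genes Kat6b and Kat7, which encodes HBO1, are both known for partners of BRD1. Kat6b rose from 3.94 ± 0.328 to 10.2 ± 0.409 TPM and Kat7 from 28.7 ± 1.64 to 47.7 ± 2.49 TPM.

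**Figure D5:**
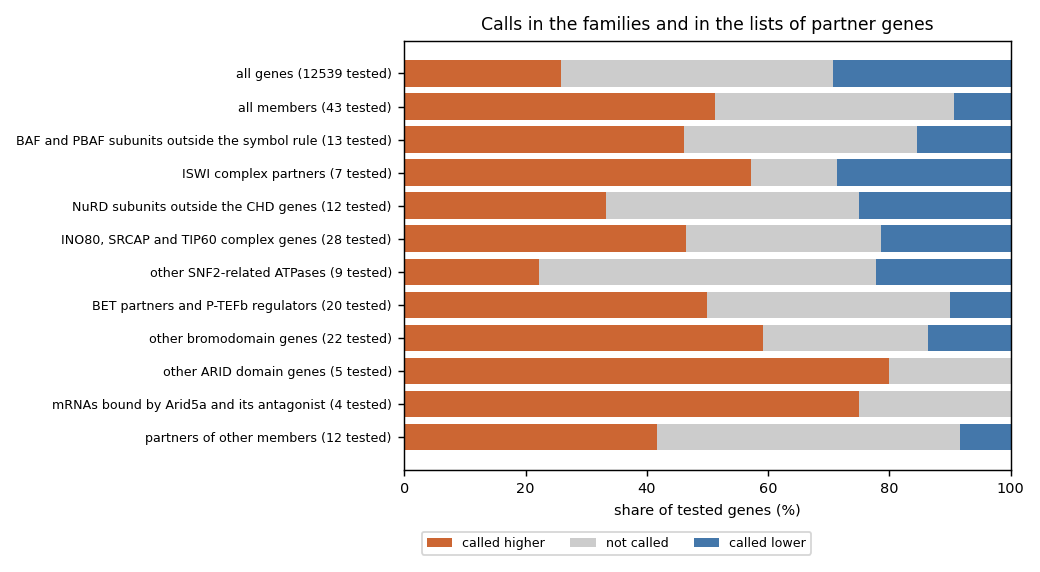
Share (%) of tested genes called higher, not called or called lower among all tested genes, the tested members and each list of genes outside the symbol rule, with the number tested in brackets. All 10 lists but the other SNF2-related ATPases have a larger called higher share than all tested genes (25.8%), and the lists are small and some share genes.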

How the data were processed

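RNA was sequenced from 3 PBS and 3 lysine samples, extracted with TRIzol per the labels' protocols. The authors deposited a single table of TPM with a column per sample, and the series' design text names RSEM as the source of the abundances. Per the submitters' processing notes, the tools were HISAT2, StringTie, RSEM and edgeR on GRCm38.p6, with no role, version or setting given. The lysine columns are headed K, the amino acid's code, with the replicate number. All columns share 1 total, so more of an abundant RNA means less of the others. Depth is unknown and no counting error can be given.

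Genes reaching 1 TPM in 3 or more samples entered the test on log2(TPM + 1) with limma 3.58.1 (intensity trend) in R 4.3.3, with Benjamini-Hochberg adjustment over all 12539 genes. With 3 samples against 3 an exact permutation test cannot go below p = 0.1, so calls rest on the limma fit. Positions, coding lengths (the longest annotated coding sequence of a gene) and overlaps came from GENCODE M21 on GRCm38, which held 93.5% of the 55740 rows and all 47 members. Shares of paralogs, list counts, lengths and motifs are descriptions without a test.

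The members and lists were chosen with earlier results of these data known. Every member is named but 1, which enters the counts, sums and medians and is otherwise not reported here. Members called with an absolute log2 fold change of at least 0.5, and the paralog sets described have the value of each sample. From each list of genes outside the symbol rule the text names genes called with a change of at least 1 and the 2 with the smallest adjusted p. Alternatives were blocking on the replicate number, a smaller pseudocount (0.1), a filter of 5 TPM or none, 3 other scalings, limma without the trend and leaving out each sample in turn.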

Additional observations from a re-analysis of the deposited data

How the results depend on the processing

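The 14 alternative settings called 20 to 24 members higher and 3 to 6 lower, against 22 and 4. Leaving out 1 sample at a time gave 21 to 24 higher and 3 to 5 lower. Of the 26 called members 24 kept their call in every setting that tested them, the exceptions being Chd6 and Chd9, and no called member changed sign. Of the 17 members not called 7 were called in some setting. The median log2 fold change of the members was 0.251 with no filter, 0.325 with a filter of 5 TPM, 0.431 with median-of-ratios scaling and 0.332 to 0.377 without 1 sample. The cause of these shifts was not tested, apart from the filters, which change the members tested. Arid4a, not called in any of these, changed sign with median-of-ratios scaling (0.0297), with quantile normalization (0.00127) and without 1 sample (-0.0855 to 0.0436). Smarcad1, likewise not called, changed sign without PBS replicate 2 or lysine replicate 1 (-0.0234 to 0.0623 over the samples left out). The cause was not tested. With the replicate number as a block 23 members were called higher and 6 lower, and 7339 genes in all against 6904. The block added the calls of Smarcb1, Smarcd2 and Smarce1. Same-numbered samples deviated together in part (correlations of 0.171, 0.092 and 0.245), and 6 of 6 samples correlated best with their own number. The main fit did not use the numbers as pairs, and whether they mark pairs is not known. No depth is known, so the precision of low genes such as Chd5, Brd8dc and Smarcd3 cannot be given.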
